A study of Mus musculus with 16 samples.

Results

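The 31 genes described here were listed as scaffolds and regulators of the postsynaptic density, the protein mesh beneath the membrane of excitatory synapses. The rule of the list names genes and no measured value, and at which synapses each protein sits was not measured. All 31 were found among the 55385 genes measured. RNA was sequenced from primary hippocampal cultures of newborn C57Bl/6N mice in 16 libraries, 4 in each of 4 groups. The groups combined Control-shRNA or Dnmt3a1-shRNA2, which targets the Dnmt3a1 isoform of the DNA methyltransferase Dnmt3a, with the baseline condition or 4 h of bicuculline, a blocker of GABA-A receptors that raises the firing of neuronal networks. All 4 groups were infected with a recombinant adeno-associated virus that carried the shRNA under a U6 promoter together with GFP under a chicken β-actin promoter, so no group was free of virus. The knockdown rests on a single construct, whose number is given by the study and not by the labels. The 4 libraries of each group are described by the study as independent neuronal preparations. The question was how blocking inhibition, losing Dnmt3a1, and doing both changed the transcripts of the postsynaptic scaffold.

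In the postsynaptic density, MAGUK proteins of the Dlg family bind glutamate receptors with their PDZ domains and are joined through SAPAP proteins of the Dlgap family to the Shank scaffolds, which reach toward the actin of the dendritic spine. Around this core sit regulators of small GTPases, anchors that hold AMPA receptors, kinases and phosphatases near the membrane, and proteins that shape spine actin. Neuronal activity is known to change the amount of several of these proteins, and the composition of the density sets how many receptors a synapse can hold.

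Library totals lay between 28912697 and 29586355 estimated counts, and mitochondrial transcripts took 2.73% to 6.60% of them. Levels are given as CPM, which is the count relative to the library total after TMM scaling, a scale that allows a gene to be compared between libraries, or as TPM, a scale per transcript length that also allows genes to be compared with each other. Dnmt3a, the targeted gene, was measured at 311, 293, 321 and 324 CPM in Control-shRNA at baseline and at 338, 333, 325 and 311 CPM with bicuculline. In Dnmt3a1-shRNA2 it was at 45.5, 39.4, 45.1 and 48.0 CPM at baseline and at 45.1, 47.8, 44.5 and 43.8 CPM with bicuculline, below every control library. Summed markers of neurons in general stood at 6080 to 7192 TPM, those of astrocytes at 227 to 523 TPM, those of microglia at 3.03 to 9.71 TPM and those of proliferation at 1.05 to 3.30 TPM. The astrocyte sums overlapped between all groups, and by gene the 9 astrocyte markers had a median log2 fold change of 0.41 and 0.42 in the knockdown at baseline and with bicuculline, with 1 called higher in each, and their part in the results below was not tested. The 9 markers of excitatory neurons summed to 1688 to 1791 TPM in Control-shRNA at baseline and to 1469 to 1669 TPM in Dnmt3a1-shRNA2 at baseline. By gene, 0 of these 9 were called in the knockdown at baseline and their median log2 fold change was 0.18, while the sum was lower. The sum is in TPM and the fold change on TMM-scaled counts, so the 2 are on different scales. For this comparison the median change of all genes was 0.01 on TMM-scaled counts and -0.08 on log2(TPM + 1). With bicuculline the excitatory markers summed to 1285 to 1516 TPM in Control-shRNA and 1141 to 1467 TPM in Dnmt3a1-shRNA2, below the baseline libraries of the same shRNA. The 8 markers of GABAergic neurons summed at baseline to 1514 to 1682 TPM in Control-shRNA and 1163 to 1387 TPM in Dnmt3a1-shRNA2. With bicuculline they summed to 1863 to 1998 TPM in Control-shRNA and 1475 to 1694 TPM in Dnmt3a1-shRNA2. In bulk RNA, fewer cells of a type and less RNA per cell cannot be told apart.

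The 31 genes were expressed well above the typical gene. In Control-shRNA at baseline their median was 71.8 TPM, against 12.3 TPM over the 17222 tested genes, and 30 of the 31 lay above that median. Nrgn, which encodes the calmodulin buffer neurogranin, was the highest at 981 ± 180 TPM (SD, n = 4). Dlg4, which encodes the main MAGUK scaffold of mature excitatory synapses, followed at 459 ± 17.3 TPM, and Ppp1r9b, which encodes spinophilin, a partner of protein phosphatase 1 and actin, at 266 ± 7.7 TPM. Grip2, a PDZ protein that binds AMPA receptors, was the lowest at 8.6 ± 1.1 TPM. In the order of levels, 21 of the 30 pairs of neighbours had overlapping libraries, so most adjacent ranks did not differ beyond the spread.

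With bicuculline, some scaffold transcripts moved about 2-fold and most by less. In Control-shRNA, 5 of the 31 genes were called higher and 4 lower, at an adjusted p-value under 0.05 and a log2 fold change over 0.5 in size. Over all 17222 genes, 10.8% were called higher and 11.1% lower, 21.9% in all. The genes called higher were Dlg1, Dlgap2, Sipa1l2, Cnksr2 and Baiap2, and those called lower were Sipa1l3, Akap5, Cyfip1 and Synpo. In Dnmt3a1-shRNA2 the same 5 were called higher, and the same 4 together with Dlg3 were called lower, while 12.6% and 13.2% of all genes were called in these directions, 25.8% in all. The labels number the libraries of each group from 1 to 4. Values with this number as a replicate block are given beside a result where the block changed the outcome. Same-numbered libraries deviated together in 3 comparisons, and for bicuculline in Dnmt3a1-shRNA2 in all pairs but 1. The median log2 fold change of the 31 genes was -0.07 in Control-shRNA and -0.10 in Dnmt3a1-shRNA2, and over all genes it was 0.01 and -0.01. By the adjusted p-value alone, 10 of the 31 genes were higher and 7 lower in Control-shRNA, against 19.5% and 21.9% of all genes, 41.4% in all. In Dnmt3a1-shRNA2 9 were higher and 11 lower, against 20.8% and 25.2%, 46.0% in all. Of all called genes, 50.8% were lower in Control-shRNA and 51.1% in Dnmt3a1-shRNA2, and with library sizes only 69.0% and 67.2%, where the 31 genes split into 5 higher and 6 lower, and 5 and 5.

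Fewer genes were called for the knockdown than for bicuculline, among the 31 as among all genes. At baseline, Dlg4 and Sipa1l3 were called lower and none of the 31 was called higher, where 4.07% of all genes were called lower and 1.76% higher, 5.83% in all. With bicuculline in both groups, Dlg4 was the only one of the 31 called, lower, where 3.9% of all genes were called lower and 2.0% higher, 5.89% in all. The median log2 fold change of the 31 was -0.02 at baseline and -0.04 with bicuculline, and over all genes it was 0.01 and -0.01. No gene of the 31 passed the test of the interaction, in which the bicuculline response under Dnmt3a1-shRNA2 is set against that under Control-shRNA, and 0 of all genes did in edgeR, with 852 below an unadjusted p-value of 0.05, and 17 in DESeq2. Of all genes called for the knockdown, 69.8% and 66.1% were lower, and with library sizes only 85.8% and 80.8%.

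**Figure D1:**
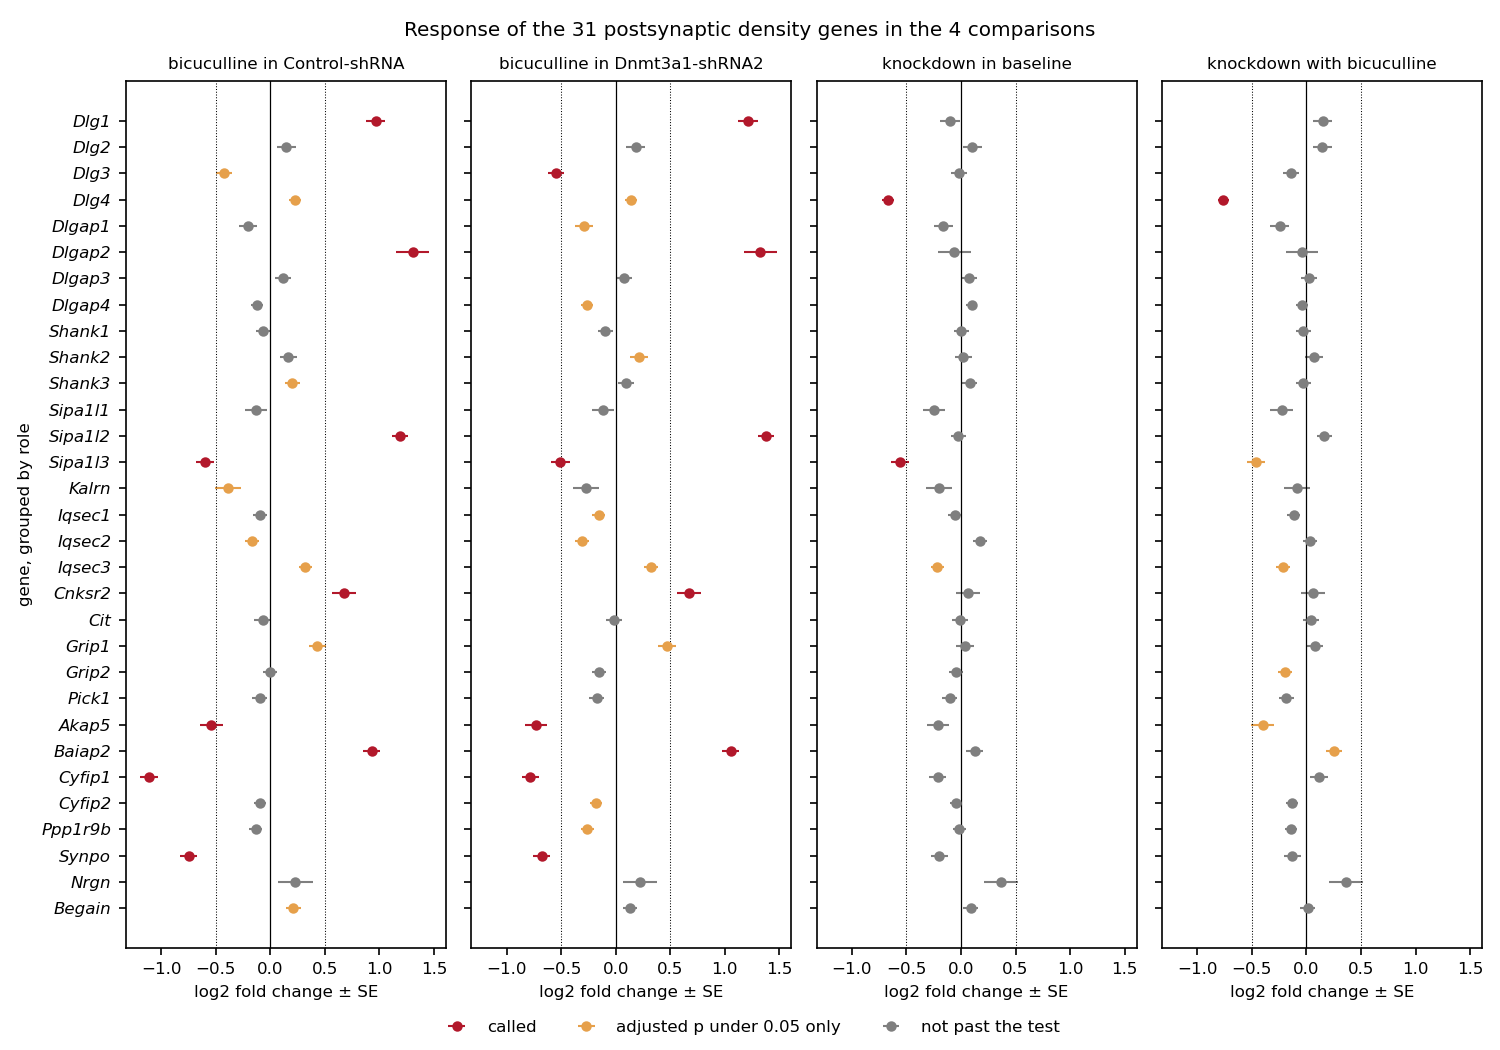
Log2 fold change with its standard error for each of the 31 genes (rows, grouped by role) in the 4 comparisons (panels), coloured by whether the gene was called, passed the adjusted p-value alone, or did not pass; dotted lines mark the threshold of 0.5. The bicuculline panels hold 9 and 10 called genes, and the knockdown panels hold 2 and 1.

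Among the MAGUK scaffolds, Dlg1 rose and Dlg3 fell with bicuculline, and Dlg4 was the only one of the 4 paralogues called for the knockdown. Dlg4 maps to chromosome 11 of GRCm38 (70016942 to 70047522, plus strand), with 22 annotated transcripts. The knocked-down enzyme methylates cytosines in CpG dinucleotides, and methylation was not measured in these libraries, so the sequences before the Dlg4 starts are shown for their CpG content. RefSeq gives 3 windows before starts of Dlg4. They hold 4, 11 and 14 CpG dinucleotides in 250 bases. The median was 6 over all 32851 windows and 12 over the 47 windows of these genes. The stretches of windows 2 and 3 that lie in no annotated exon are at chr11:70018355-70018440 and chr11:70023732-70023919, with capitals for CpG. The first of them has 0 CpG and the other has 5. Both stretches lie inside the span of the gene. Each is only a part of its window, so these counts do not describe a whole window or the sequence before the gene.
Dlg4 window 2: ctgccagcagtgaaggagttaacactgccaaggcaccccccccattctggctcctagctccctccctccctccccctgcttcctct
Dlg4 window 3: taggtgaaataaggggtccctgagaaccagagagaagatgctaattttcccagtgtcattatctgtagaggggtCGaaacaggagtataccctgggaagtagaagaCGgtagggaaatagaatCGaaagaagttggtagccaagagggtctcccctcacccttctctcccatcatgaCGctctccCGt

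In Control-shRNA, Dlg4 stood at 691, 678, 655 and 659 CPM at baseline and at 839, 814, 744 and 747 CPM with bicuculline. In Dnmt3a1-shRNA2 it stood at 430, 422, 435 and 396 CPM at baseline and at 474, 438, 471 and 474 CPM with bicuculline. All 8 knockdown libraries lay below all 8 control libraries. The knockdown lowered Dlg4 to 0.628 of its control level at baseline (log2 fold change -0.67 ± 0.05 SE, adjusted p = 2.5e-07 by edgeR's quasi-likelihood test) and to 0.591 with bicuculline (-0.76 ± 0.05, adjusted p = 5.5e-08). Both values held the call without each library in turn and under every other model and scaling tried, and were short only of a threshold of 1. The summed TPM of the excitatory markers was also lower in the knockdown at baseline, by the ranges given above. Their median gene, on TMM-scaled counts, was not lower, and the part of these markers in the Dlg4 result was not tested. The response of Dlg4 to bicuculline was small, with a log2 fold change of 0.23 in Control-shRNA (adjusted p = 0.0025) and 0.14 in Dnmt3a1-shRNA2 (adjusted p = 0.043), and it depended on the scaling and, in Dnmt3a1-shRNA2, passed in 6 of 16 fits without a library. With library sizes only, the values were 0.069 and -0.0091, against a median of -0.15 and -0.16 over all genes, so that relative to this shift Dlg4 was at 0.22 and 0.15.

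Dlg1, which encodes SAP97, a MAGUK that also travels with AMPA receptors on their way to the membrane, rose with bicuculline under both shRNAs. It maps to chromosome 16 (31663443 to 31875129, plus strand). Dlg1 in Control-shRNA was at 51.3, 48.3, 56.0 and 51.3 CPM at baseline and at 111, 84.0, 101 and 108 CPM with bicuculline. Under Dnmt3a1-shRNA2, Dlg1 was at 48.4, 44.8, 53.2 and 46.5 CPM at baseline and at 127, 106, 101 and 114 CPM with bicuculline. Every bicuculline library exceeded every baseline library, and the shRNA groups overlapped in both conditions. For Dlg1 the log2 fold changes were 0.97 ± 0.09 (adjusted p = 1.6e-07) and 1.22 ± 0.09 (adjusted p = 7.2e-09), and the interaction of 0.25 ± 0.13 did not pass.

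Dlg3, which encodes SAP102, the MAGUK prominent at young synapses, moved the other way. It maps to chromosome X (100767722 to 100818410, plus strand). Dlg3 in Control-shRNA was at 161, 142, 156 and 157 CPM at baseline and at 119, 113, 113 and 114 CPM with bicuculline. Under Dnmt3a1-shRNA2, Dlg3 was at 170, 131, 149 and 158 CPM at baseline and at 116, 98.9, 101 and 102 CPM with bicuculline. The bicuculline libraries lay below the baseline libraries under both shRNAs. The log2 fold change was -0.42 ± 0.07 in Control-shRNA (adjusted p = 0.00015), short of the threshold of 0.5, and -0.54 ± 0.07 in Dnmt3a1-shRNA2 (adjusted p = 8.5e-06), which was past it except without baseline library 1 of that shRNA (-0.49). The knockdown with bicuculline gave -0.14 for Dlg3, which passed only with the replicate block (adjusted p = 0.039). Dlg2, which encodes PSD-93, had log2 fold changes of 0.15 and 0.19 for bicuculline, which both passed only with the block (adjusted p = 0.038 and 0.0087). Its 0.10 and 0.14 for the knockdown did not pass.

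Per transcript length, these changes shifted the make-up of the family. Dlg4 held 62.6 ± 1.7% of the summed TPM of the 4 Dlg genes in Control-shRNA at baseline and 50.6 ± 2.3% in Dnmt3a1-shRNA2 (SD, n = 4), with no overlap between libraries. With bicuculline it held 63.1 ± 1.8% and 48.4 ± 2.2%. The total of the family was 733 ± 30 TPM in Control-shRNA and 535 ± 53.9 TPM in Dnmt3a1-shRNA2 at baseline. The share of Dlg1 went from 3.99 ± 0.43% at baseline to 6.90 ± 0.83% with bicuculline in Control-shRNA, and from 4.79 ± 0.28% to 9.79 ± 0.39% in Dnmt3a1-shRNA2. The share of Dlg3 went from 9.80 ± 0.64% to 6.20 ± 0.16% and from 12.3 ± 0.91% to 7.23 ± 0.20%. On this scale Dlg4 itself did not change with bicuculline beyond its spread, at 459 ± 17.3 and 461 ± 12.7 TPM in Control-shRNA.

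**Figure D2:**
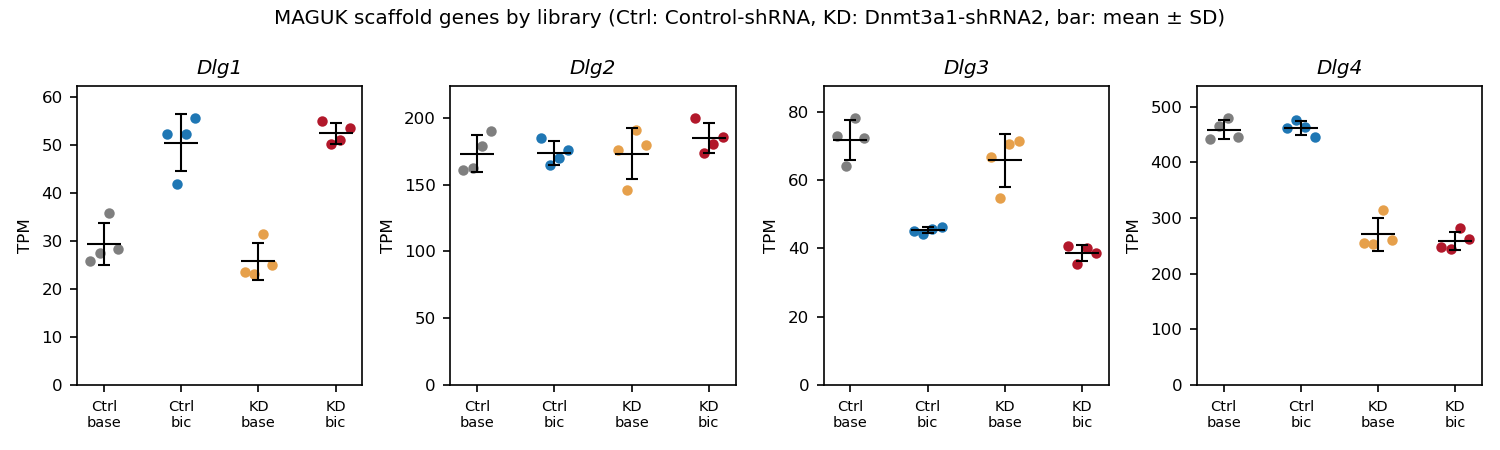
TPM of the 4 MAGUK genes in each library (points, libraries 1 to 4 from left to right in each group) with the mean and SD. Dlg4 lies at 254 to 314 TPM in the knockdown at baseline and at 443 to 480 TPM in its control, Dlg1 rises and Dlg3 falls with bicuculline, and Dlg2 overlaps in all groups.

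Of the 4 SAPAP genes, whose proteins join MAGUKs to Shanks, Dlgap2 stood out. It maps to chromosome 8 (14095865 to 14847680, plus strand). Dlgap2 in Control-shRNA was at 38.0, 32.7, 37.6 and 40.3 CPM at baseline and at 122, 77, 76.6 and 90.7 CPM with bicuculline. Under Dnmt3a1-shRNA2, Dlgap2 was at 37.5, 29.2, 36.1 and 39.6 CPM at baseline and at 108, 75.3, 75.0 and 99.1 CPM with bicuculline. The bicuculline libraries were wide apart among themselves and all above baseline. For Dlgap2 the log2 fold changes were 1.30 ± 0.15 (adjusted p = 2.0e-06) and 1.33 ± 0.15 (adjusted p = 1.2e-06), the largest rise of the 31 genes in Control-shRNA. Its share of the family's summed TPM went from 3.53 ± 0.28% to 9.48 ± 1.98% in Control-shRNA, and that of Dlgap1 from 24.2 ± 1.9% to 19.7 ± 1.8%. Dlgap1 and Dlgap4 were lower with bicuculline in Dnmt3a1-shRNA2, by log2 fold changes of -0.29 (adjusted p = 0.0095) and -0.26 (adjusted p = 0.00070), and in Control-shRNA their -0.21 and -0.13 passed only with the replicate block (adjusted p = 0.0035 and 0.023). Dlgap1 also passed for the knockdown only with the block, at -0.16 at baseline (adjusted p = 0.026) and -0.25 with bicuculline (adjusted p = 0.0023). Dlgap3 passed no test.

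The Shank genes, whose large proteins form the deeper layer of the density, moved little, and none was called. Shank3 passed the test for bicuculline in Control-shRNA at 0.20 ± 0.07 (adjusted p = 0.028), and Shank2 in Dnmt3a1-shRNA2 at 0.21 ± 0.08 (adjusted p = 0.035). Shank2 had 0.16 in Control-shRNA, which passed only with the replicate block (adjusted p = 0.028). The 2 values that passed lost the test when the libraries were scaled by size only, at 0.04 and 0.06, and in other settings. Shank3 passed in 4 of 10 alternatives and 11 of 16 fits without a library. Shank2 passed in 4 of 10 and 13 of 16. Shank1 passed in no comparison, with log2 fold changes from -0.10 to -0.00. Shank3 took 50.4 ± 1.5% of the family's summed TPM, Shank1 34.1 ± 0.99% and Shank2 15.4 ± 0.66% in Control-shRNA at baseline.

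The regulators of small GTPases held a pair of related genes that moved in opposite directions. The Sipa1l proteins are GTPase-activating proteins for Rap, found in spines. Sipa1l2 maps to chromosome 8 (125418063 to 125569808, minus strand), and Sipa1l3 to chromosome 7 (29320372 to 29518641, minus strand). Sipa1l2 rose with bicuculline, and Sipa1l3 fell with bicuculline and with the knockdown. The windows before their RefSeq starts differ in position and composition. That of Sipa1l3, at chr7:29505461-29505710, lies inside the span of the gene and has 5 CpG dinucleotides, shown in capitals. The second window of Sipa1l2, at chr8:125569864-125570113, lies just outside the span of its gene and has 37 CpG. It holds matches to the motif of the activity-induced EGR factors, GCGNGGGCG on either strand, shown in capitals there. The 2 windows are thus not at like positions, and their CpG counts do not compare the promoters of the 2 genes.
Sipa1l3 window: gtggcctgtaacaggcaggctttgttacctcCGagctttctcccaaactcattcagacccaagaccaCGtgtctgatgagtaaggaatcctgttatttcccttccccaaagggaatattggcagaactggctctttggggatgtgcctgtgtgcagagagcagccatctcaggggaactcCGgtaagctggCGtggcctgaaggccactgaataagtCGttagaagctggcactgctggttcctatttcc
Sipa1l2 window 2: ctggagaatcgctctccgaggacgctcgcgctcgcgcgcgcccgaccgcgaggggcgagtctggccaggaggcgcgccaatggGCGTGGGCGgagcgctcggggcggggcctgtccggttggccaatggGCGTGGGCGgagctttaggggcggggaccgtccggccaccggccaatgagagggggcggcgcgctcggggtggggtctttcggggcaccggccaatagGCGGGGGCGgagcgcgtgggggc

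Windows of 26 of the 31 genes were found, 47 in all. The EGR motif was in 7 of them (14.9%) and in 4.70% of all windows, but in 29.2% of all windows with at least 30 CpG. The 7 belong to Baiap2, Begain, Dlgap4, Iqsec2, Iqsec3, Shank3 and Sipa1l2, of which only Baiap2 and Sipa1l2 were called for bicuculline. The CRE motif TGACGTCA was in 0 of the 47 windows and 1.55% of all windows, and the AP-1 motif TGANTCA in 1, the first window of Sipa1l2, and in 6.75% of all windows. A match is a description of the letters and not evidence of binding.

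Sipa1l2 was measured in Control-shRNA at 63.8, 65.4, 72.7 and 74.4 CPM at baseline and at 157, 164, 155 and 155 CPM with bicuculline. Under Dnmt3a1-shRNA2, Sipa1l2 was at 62.7, 67.9, 77.4 and 63.7 CPM and at 188, 175, 166 and 177 CPM. No baseline library came near a bicuculline library. For Sipa1l2 the log2 fold changes were 1.19 ± 0.07 (adjusted p = 5.2e-10) and 1.38 ± 0.07 (adjusted p = 6.3e-11), the smallest adjusted p-values of the 31 genes for bicuculline under both shRNAs. With bicuculline the knockdown libraries lay above the control libraries, by a log2 fold change of 0.17 that did not pass the test.

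Sipa1l3 was measured in Control-shRNA at 134, 107, 97.9 and 109 CPM at baseline and at 75.2, 71.7, 71.8 and 76.3 CPM with bicuculline. Under Dnmt3a1-shRNA2, Sipa1l3 was at 79.5, 71.8, 74.5 and 78.5 CPM and at 57.9, 47.7, 52.8 and 55.8 CPM. The groups separated by bicuculline and by shRNA without overlap, and the knockdown at baseline overlapped the control with bicuculline. Bicuculline gave log2 fold changes of -0.60 ± 0.08 (adjusted p = 1.4e-05) in Control-shRNA and -0.51 ± 0.08 (adjusted p = 7.4e-05) in Dnmt3a1-shRNA2, the latter just past the threshold of 0.5 and short of it in 3 of 10 alternatives and 3 of 16 fits without a library. The knockdown gave -0.56 ± 0.08 at baseline (adjusted p = 0.00017) and -0.46 ± 0.08 with bicuculline (adjusted p = 0.00099, short of the threshold). Without Control-shRNA baseline library 1, the highest, the value at baseline was -0.46 (adjusted p = 0.00034). Sipa1l3 held 30.3 ± 1.8% of the summed TPM of the 3 Sipa1l genes in Control-shRNA at baseline and 15.7 ± 1.3% in Dnmt3a1-shRNA2 with bicuculline, whereas Sipa1l2 held 12.7 ± 1.4% and 32.7 ± 1.4%. Sipa1l1, the most abundant of the 3, had log2 fold changes from -0.25 to -0.11 and passed only with the replicate block, at -0.14 for bicuculline in Control-shRNA (adjusted p = 0.036) and at -0.25 and -0.23 for the knockdown (adjusted p = 0.0016 and 0.0031).

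Cnksr2, a scaffold for Ras signalling that binds MAGUKs, maps to chromosome X (157821436 to 158043294, minus strand). Cnksr2 in Control-shRNA was at 114, 104, 118 and 120 CPM at baseline and at 213, 155, 171 and 190 CPM with bicuculline. Under Dnmt3a1-shRNA2, Cnksr2 was at 123, 95.4, 130 and 128 CPM and at 220, 183, 162 and 193 CPM. Bicuculline libraries exceeded baseline libraries under both shRNAs, and the shRNA groups overlapped. For Cnksr2 the log2 fold changes were 0.68 ± 0.11 (adjusted p = 9.3e-05) and 0.67 ± 0.11 (adjusted p = 7.9e-05). On log2(TPM + 1) they were 0.44 under both, past the test and below the threshold.

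The other regulators changed less. Among the Iqsec genes, whose proteins activate Arf GTPases, Iqsec3 was higher with bicuculline at 0.32 ± 0.06 in Control-shRNA (adjusted p = 0.00045) and 0.33 ± 0.06 in Dnmt3a1-shRNA2 (adjusted p = 0.00033), and lower in the knockdown at -0.22 ± 0.06 at baseline (adjusted p = 0.024) and -0.21 ± 0.06 with bicuculline (adjusted p = 0.025). On log2(TPM + 1) the bicuculline values of Iqsec3 were 0.097 and 0.11 and did not pass (adjusted p = 0.37 and 0.28). Its knockdown values passed in 12 and 13 of 16 fits without a library. Iqsec2 was lower with bicuculline, by -0.17 and -0.31 (adjusted p = 0.041 and 0.00068). Its value in Control-shRNA passed in 11 of 16 fits without a library and 8 of 10 alternatives. Its 0.17 in the knockdown at baseline passed only with the replicate block (adjusted p = 0.027). Iqsec1 was lower in Dnmt3a1-shRNA2, at -0.16 (adjusted p = 0.046), stood at -0.10 in Control-shRNA, and passed in 4 of 16 fits without a library. Kalrn, an activator of Rac in spines, was lower in Control-shRNA at -0.39 ± 0.12 (adjusted p = 0.013), and its -0.27 in Dnmt3a1-shRNA2 passed only with the replicate block (adjusted p = 0.0054). Cit, which encodes citron, passed no test and lay between -0.07 and 0.05 in all comparisons, the interaction included.

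Of the anchors around the AMPA receptor, Akap5 fell and Grip1 rose with bicuculline. Akap5, which encodes the anchor that holds protein kinase A and calcineurin at the density, maps to chromosome 12 (76324891 to 76334153, plus strand). Akap5 in Control-shRNA was at 58.7, 49.5, 63.6 and 63.6 CPM at baseline and at 38.0, 39.8, 44.0 and 40.1 CPM with bicuculline. Under Dnmt3a1-shRNA2, Akap5 was at 51.2, 39.9, 54.5 and 57.8 CPM and at 30.1, 28.4, 33.8 and 30.2 CPM. The bicuculline libraries lay below baseline under both shRNAs, and with bicuculline the knockdown libraries also lay below the control libraries. For Akap5 the log2 fold changes with bicuculline were -0.54 ± 0.10 (adjusted p = 0.00039) and -0.73 ± 0.10 (adjusted p = 1.6e-05). The knockdown gave -0.21 at baseline, which passed only with the replicate block (adjusted p = 0.025), and -0.40 ± 0.10 with bicuculline (adjusted p = 0.013), and the interaction of -0.19 did not pass.

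Grip1, which binds the tails of GluA2 and GluA3, was higher with bicuculline by 0.43 ± 0.08 in Control-shRNA (adjusted p = 0.00031) and 0.47 ± 0.08 in Dnmt3a1-shRNA2 (adjusted p = 0.00010), below the threshold of 0.5 in both. On log2(TPM + 1) the value in Control-shRNA was 0.18 and did not pass (adjusted p = 0.093). Its paralogue Grip2 had -0.00 and -0.15 for bicuculline, of which the value in Dnmt3a1-shRNA2 passed only with the replicate block (adjusted p = 0.033). Grip2 was lower in the knockdown with bicuculline at -0.19 ± 0.06 (adjusted p = 0.042), which passed in 5 of 16 fits without a library. Grip1 held 80.4 ± 1.8% of the summed TPM of the pair in Control-shRNA at baseline and 86.6 ± 0.87% in Dnmt3a1-shRNA2 with bicuculline. Pick1, a BAR-domain protein that takes AMPA receptors from the surface, had log2 fold changes from -0.18 to -0.08. For Pick1, bicuculline in Dnmt3a1-shRNA2 (-0.17) and the knockdown with bicuculline (-0.18) passed only with the replicate block (adjusted p = 0.023 and 0.032). Its exons share 1222 bases with Gm49486 on the same strand, so reads could be divided between them.

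The genes of spine actin split between a rise of Baiap2 and falls of Cyfip1 and Synpo. Baiap2 encodes IRSp53, which links Rac and Cdc42 to actin and binds Shank, and maps to chromosome 11 (119942763 to 120006782, plus strand). Baiap2 in Control-shRNA was at 160, 160, 159 and 140 CPM at baseline and at 329, 294, 276 and 280 CPM with bicuculline. Under Dnmt3a1-shRNA2, Baiap2 was at 168, 176, 174 and 158 CPM and at 337, 372, 306 and 390 CPM. The bicuculline libraries were well apart from baseline under both shRNAs. For Baiap2 the log2 fold changes were 0.93 ± 0.08 (adjusted p = 4.3e-08) and 1.06 ± 0.08 (adjusted p = 6.7e-09). With bicuculline the knockdown was higher by 0.25 ± 0.08 (adjusted p = 0.030), with overlapping libraries, and this did not pass with library sizes only (0.18, adjusted p = 0.12) or without 5 of the 8 libraries compared, each in turn.

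Cyfip1, whose protein belongs to the WAVE complex that starts branched actin and also binds the translation repressor FMRP, had the largest fall. It maps to chromosome 7 (55841745 to 55932602, plus strand). Cyfip1 in Control-shRNA was at 86.9, 70.6, 67.9 and 75.3 CPM at baseline and at 31.1, 37.7, 36.2 and 34.3 CPM with bicuculline. Under Dnmt3a1-shRNA2, Cyfip1 was at 64.4, 62.7, 63.2 and 68.7 CPM and at 35.2, 37.9, 41.5 and 36.1 CPM. Both bicuculline groups lay far below both baseline groups. For Cyfip1 the log2 fold changes were -1.11 ± 0.08 (adjusted p = 7.6e-09) and -0.78 ± 0.08 (adjusted p = 4.0e-07). The difference between them, 0.33 ± 0.11, was the largest interaction among the 31 genes, and it had an unadjusted p-value of 0.0099 by edgeR and did not pass once adjusted (0.84). Exons of Cyfip1 share 1316 bases with those of Nipa2 on the opposite strand, and whether the counting used strand is not given in the sources used here. Nipa2 was measured at a log2 fold change of 0.13 under both shRNAs (adjusted p = 0.20 and 0.17), so the value of Cyfip1 is uncertain to the extent that reads were shared. Cyfip2, its abundant paralogue in the WAVE complex, was lower in Dnmt3a1-shRNA2 at -0.18 (adjusted p = 0.015) and stood at -0.09 in Control-shRNA, and its -0.13 in the knockdown with bicuculline passed only with the replicate block (adjusted p = 0.033). Cyfip1 went from 18.6 ± 1.4% to 10.5 ± 0.43% of the pair's summed TPM in Control-shRNA.

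Synpo encodes synaptopodin, an actin-binding protein of the spine apparatus. Synpo in Control-shRNA was at 99.9, 86.6, 91.8 and 93.7 CPM at baseline and at 53.0, 57.0, 58.3 and 53.2 CPM with bicuculline. Under Dnmt3a1-shRNA2, Synpo was at 73.6, 80.0, 88.5 and 82.3 CPM and at 47.9, 44.7, 57.1 and 53.0 CPM. The bicuculline libraries lay below baseline under both shRNAs, and the shRNA groups overlapped. For Synpo the log2 fold changes were -0.75 ± 0.08 (adjusted p = 4.8e-07) and -0.68 ± 0.08 (adjusted p = 1.2e-06). The knockdown at baseline gave -0.20, which passed only with the replicate block (adjusted p = 0.027). Ppp1r9b was lower in Dnmt3a1-shRNA2 at -0.26 ± 0.06 (adjusted p = 0.0014), and its -0.14 in Control-shRNA and -0.14 in the knockdown with bicuculline passed only with the block (adjusted p = 0.034 and 0.043).

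Neither of the remaining genes was called. Nrgn had the widest spread of the abundant genes, and its log2 fold changes of 0.23 and 0.22 for bicuculline and 0.37 and 0.36 for the knockdown did not pass without the replicate block. With it, those for bicuculline passed (adjusted p = 0.020 and 0.010), as did those for the knockdown (adjusted p = 0.0014 and 0.00088). Begain, which encodes a partner of PSD-95, passed in Control-shRNA at 0.21 ± 0.07 (adjusted p = 0.019), a direction that turned to -0.019 on log2(TPM + 1), where the median of all genes was -0.14. In Dnmt3a1-shRNA2 its 0.13 passed only with the block (adjusted p = 0.036).

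**Figure D3:**
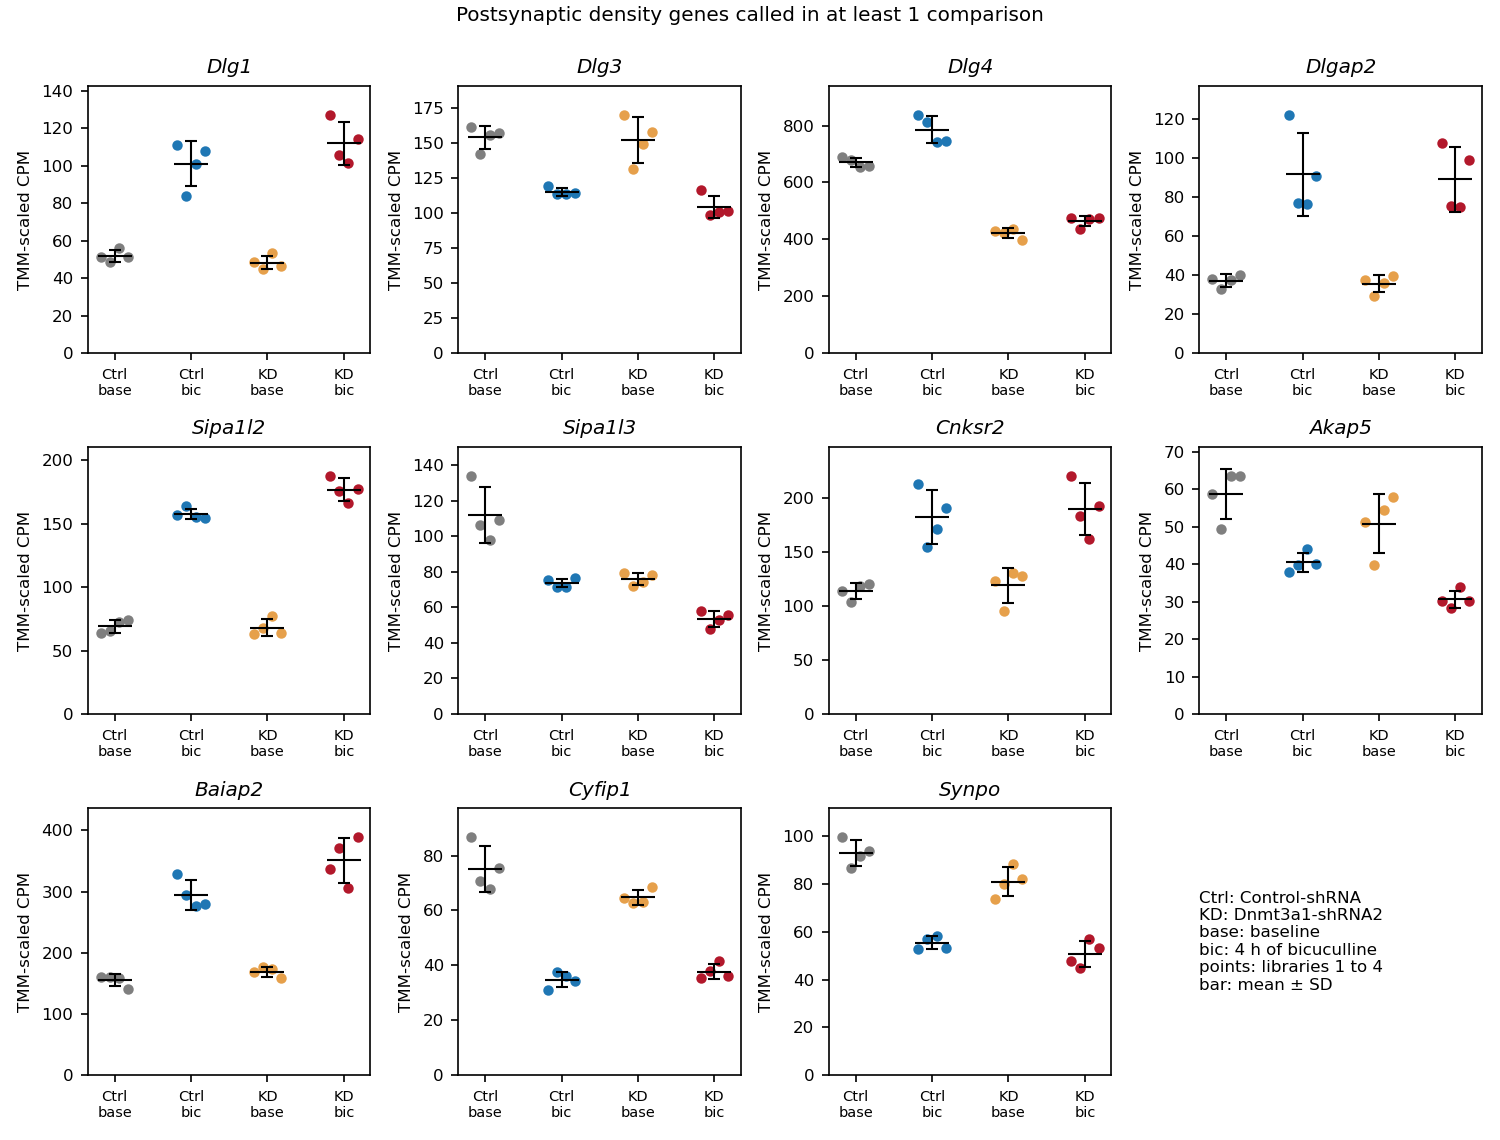
CPM of the 11 genes called in at least 1 comparison, in each library (points, libraries 1 to 4 from left to right in each group) with the mean and SD, on axes that start at 0. Dlg1, Dlgap2, Sipa1l2, Cnksr2 and Baiap2 rise and Dlg3, Sipa1l3, Akap5, Cyfip1 and Synpo fall with bicuculline under both shRNAs. Dlg4 is lower in every Dnmt3a1-shRNA2 library than in every Control-shRNA library, and in Control-shRNA it is also higher with bicuculline, by less.

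The bicuculline response of the 31 genes was close under the 2 shRNAs, which share no library in these comparisons. The sign was the same for all 31 and for 14838 of all 17222 genes. Pearson's r was 0.98 across the 31 genes, against 0.88 across all genes, which include many expressed at lower levels than the 31. Genes are not independent replicates, and the value is a description. The largest difference was that of Cyfip1, and in the test of the interaction 1 of the 31 was below an unadjusted p-value of 0.05 in edgeR, in voom with limma and in DESeq2, with 0 past the adjusted p-value in each. The knockdown effects at baseline and with bicuculline, which likewise share no library, had an r of 0.84 over the 31 genes and of 0.55 over all genes. Their sign was the same for 25 of the 31 and for 13143 of all 17222 genes.

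**Figure D4:**
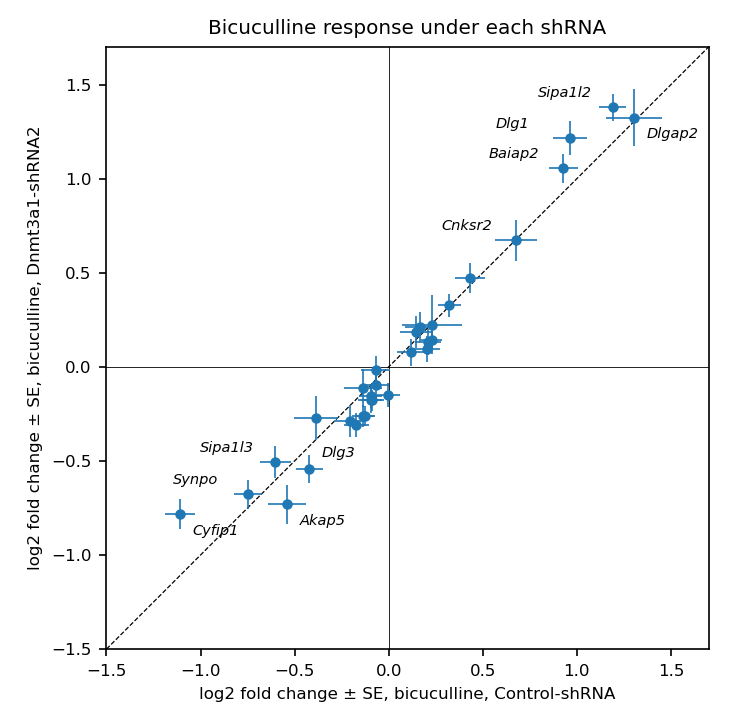
Log2 fold change of each of the 31 genes for bicuculline under Dnmt3a1-shRNA2 (vertical axis) against that under Control-shRNA (horizontal axis), with standard errors, and a dashed line of equality. All 31 lie in the quadrants of equal sign, and Cyfip1, at -1.11 and -0.78, is farthest from the line.

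Without the threshold on the fold, the knockdown passed the test for 3 of the 31 genes at baseline and 6 with bicuculline, where 16.3% of all genes passed at baseline (8.12% higher, 8.19% lower) and 17.7% with bicuculline (7.69% higher, 9.99% lower). With the replicate block these counts were 9 and 13, where 27.5% and 30% of all genes passed. For bicuculline in Control-shRNA the block took the count from 17 to 24, where 50.8% of all genes passed. No gene of the 31 lost the test with the block. The 3 genes at baseline were Dlg4, Sipa1l3 and Iqsec3, all lower. The 6 with bicuculline were these 3 with Grip2 and Akap5, all lower, and Baiap2, higher.

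The libraries of the groups compared did not overlap for 15 and 18 of the 31 genes in the bicuculline comparisons, against 39.7% and 40.4% of all genes. They did not overlap for 4 and 9 in the knockdown comparisons, against 19.9% and 20.9% of all genes. In size, the median log2 fold change of the 31 was 0.21 and 0.26 for bicuculline and 0.10 and 0.13 for the knockdown, and over all genes it was 0.27 and 0.30, and 0.17 and 0.19.

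A further 60 genes of the postsynaptic density, all tested, were set beside the 31. For bicuculline 2 were called higher and 3 lower in Control-shRNA, against 10.8% and 11.1% of all genes. In Dnmt3a1-shRNA2 5 were called higher and 5 lower, against 12.6% and 13.2%. The lower ones in Control-shRNA were Lzts1 at -1.71, the MAGUK gene Mpp3 at -0.83 and the kinase scaffold Mapk8ip2 at -0.51. The higher ones were Zdhhc5, which encodes a palmitoyltransferase, at 0.55 and Abhd17b, which encodes a depalmitoylase of PSD-95, at 0.55. In Dnmt3a1-shRNA2 the largest changes were again those of Lzts1 (-1.87), Mpp3 (-1.05) and Mapk8ip2 (-0.71) downward, and those of Lin7a (0.85), Magi3 (0.61) and Zdhhc5 (0.57) upward. The knockdown lowered Akap7, an anchor of protein kinase A, at -0.63 at baseline and -0.95 with bicuculline, and Abi2, a subunit of the WAVE complex, at -0.61 and -0.56. Lin7c was higher at baseline, at 0.55. By the adjusted p-value alone, 14 of the 60 were higher and 4 lower in the knockdown at baseline, against 8.12% and 8.19% of all genes. With bicuculline 9 were higher and 6 lower in the knockdown, against 7.69% and 9.99%. Their median log2 fold change was 0.10 and 0.09 in the knockdown comparisons. Of 5 scaffold genes of inhibitory synapses measured, 0 were called in any of the 4 comparisons.

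The deposited values also allow a look at which transcripts of a gene were counted. The log2 ratio of a gene's estimated count to its TPM rises with the effective length of the transcripts that carry its reads, and after centring on the median of each library it is called here the length index. It does not name a transcript, and it also depends on the fragment lengths of a library, mostly for short transcripts. Of the 11744 genes with at least 50 counts in every library, the index differed by over 0.1 at an adjusted p-value under 0.05 in limma for 2.34% with bicuculline in Control-shRNA and for 5.64% in Dnmt3a1-shRNA2, and passed the adjusted p-value alone for 3.19% and 27.3%. Of the 31 genes, 3 were called in each comparison, and they were Dlgap2, Sipa1l1 and Iqsec2 under both shRNAs, each toward shorter transcripts.

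The index of Dlgap2 was 0.47, 0.47, 0.48 and 0.49 in Control-shRNA at baseline and 0.34, 0.33, 0.23 and 0.35 with bicuculline. In Dnmt3a1-shRNA2 it was 0.46, 0.36, 0.47 and 0.53 at baseline and 0.30, 0.32, 0.24 and 0.25 with bicuculline. Baseline and bicuculline did not overlap under either shRNA. The differences were -0.17 ± 0.03 (adjusted p = 0.016) and -0.18 ± 0.03 (adjusted p = 0.0065). Dlgap2 has 9 annotated transcripts, and its coding transcripts span 3138 to 4503 nt.

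Sipa1l1 had an index of 1.38, 1.39, 1.40 and 1.41 in Control-shRNA at baseline and of 1.26, 1.28, 1.31 and 1.28 with bicuculline. In Dnmt3a1-shRNA2 it was 1.37, 1.41, 1.42 and 1.36 at baseline and 1.24, 1.16, 1.22 and 1.23 with bicuculline. The separation was complete under both shRNAs, while the level of the gene did not pass the test without the replicate block. The differences were -0.11 ± 0.02 (adjusted p = 0.0049) and -0.18 ± 0.02 (adjusted p = 9.3e-05).

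Iqsec2 had an index of 0.94, 0.94, 0.90 and 0.96 in Control-shRNA at baseline and of 0.80, 0.83, 0.76 and 0.86 with bicuculline. In Dnmt3a1-shRNA2 it was 0.99, 0.87, 0.91 and 0.95 at baseline and 0.86, 0.83, 0.79 and 0.80 with bicuculline. The groups did not overlap under either shRNA. The differences were -0.12 ± 0.03 (adjusted p = 0.018) and -0.11 ± 0.03 (adjusted p = 0.019), and that in Control-shRNA did not pass without 3 of the 8 libraries compared, each in turn (adjusted p up to 0.059), nor that in Dnmt3a1-shRNA2 without baseline library 1 (-0.090, adjusted p = 0.056). The knockdown changed the index of 0 of the 31 genes in either condition, and 0 passed the interaction, in limma, where 0.119%, 0.145% and 0.00851% of all genes did (0.136%, 0.187% and 0.00851% by the adjusted p-value alone). At an unadjusted p-value under 0.05 there were 1 at baseline, 4 with bicuculline and 3 for the interaction.

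**Figure D5:**
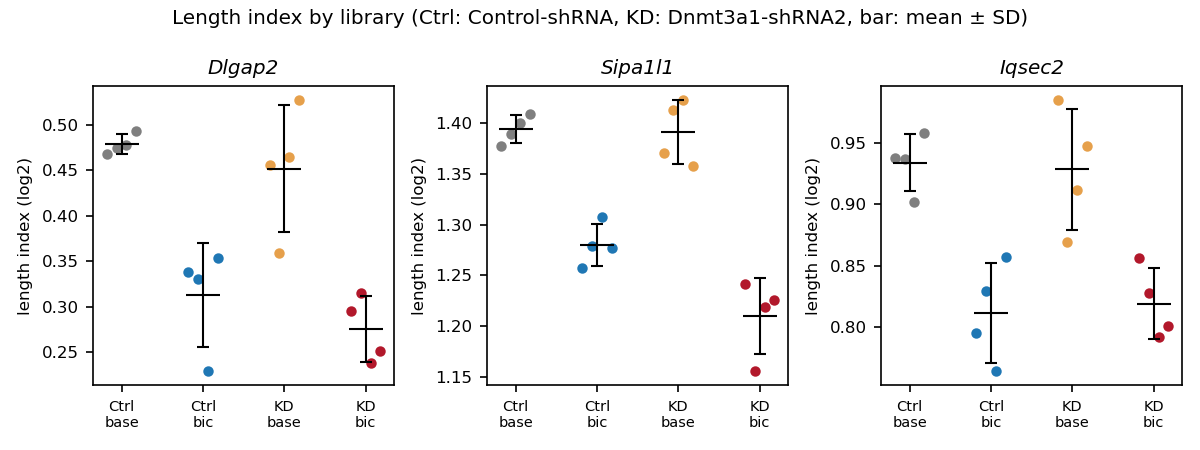
Length index (log2, centred on the median gene of each library) of Dlgap2, Sipa1l1 and Iqsec2 in each library (points, libraries 1 to 4 from left to right in each group) with the mean and SD. The bicuculline libraries lie below the baseline libraries under both shRNAs for each gene, and the vertical axes do not start at 0.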

How the data were processed

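Total RNA was sequenced in paired ends, and strand is not given in the sources used here. The p-values measure the spread between these preparations. Per the submitters' processing notes, reads were trimmed with Trim Galore 0.6.4 and quantified with kallisto on GRCm38.p6. Each library's values, as the authors deposited them, are estimated counts of genes, not scaled for depth, and TPM, scaled for transcript length and library total. After rounding, the counts went into edgeR 4.0.16 (R 4.3.3): TMM scaling, the tool's filter on low counts (17222 genes kept), 1 quasi-likelihood model for the 4 groups, and Benjamini-Hochberg adjustment over all tested genes. The length index was tested with limma 3.58.1. Calls needed an adjusted p-value below 0.05 plus a log2 change larger than 0.5 in size (0.1 for the length index), while for interactions the fold was not used. Errors of fold changes are standard errors.

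The 31 genes and all other lists were chosen with earlier results of these data known. Genes called in at least 1 comparison are given in every library. Of the 60 other genes, the 3 called with the largest change in each direction are named. Coordinates and exons are from GENCODE M21 and promoter windows from RefSeq, both on GRCm38. On data simulated for bicuculline in Control-shRNA, edgeR (16943 genes) recovered 93 of 100 genes changed by 0.8 on the log2 scale. It recovered 97 of 100 changed by 1, with 7 false calls. With limma (11744 genes), 160 of 200 length indices changed by 0.3 were recovered, with 9 false calls. For edgeR, changes were placed only in genes with an expected count over 100. Smaller changes, among them those of the size called for the length index, were not simulated.

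The labels give all groups the replicate numbers 1 to 4. How far libraries with 1 number deviated together from group means (log2(CPM + 0.5), 17222 genes) gave correlations of 0.22 to 0.35 for bicuculline in Control-shRNA, 0.31 to 0.49 for the knockdown at baseline and 0.16 to 0.52 with bicuculline, all above 0.1, and of 0.095 to 0.48 for bicuculline in Dnmt3a1-shRNA2. The block for the number was an alternative. Within groups, libraries were not duplicates: chi-square over its degrees of freedom was at least 7.57.

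Alternatives were voom with limma, DESeq2 1.42.0, DESeq2's size factors, library sizes only, no filter, limma with TPM on a log2 scale (pseudocount 1 or 0.1, or all genes above 0), the replicate block, only the 2 groups compared, other thresholds, and each of the 16 libraries left out in turn.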

Additional observations from a re-analysis of the deposited data

Results flagged for a closer look

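Among the 124 sets of 4 values formed by 31 genes in 4 groups, 6 held a library far from the other 3 by Dixon's ratio, and chance gives about 1 in 20 such sets. Of these genes, 3 were low in Dnmt3a1-shRNA2 baseline library 2: Dlgap1 at 267 CPM against 340 to 346 in the others, Shank2 at 136 CPM against 162 to 167, and Iqsec1 at 228 CPM against 245 to 248. In Dnmt3a1-shRNA2 with bicuculline, Dlg3 was high in library 1 at 116 CPM against 98.9 to 102, and Dlg4 was low in library 2 at 438 CPM against 471 to 474. Baiap2 was low in Control-shRNA baseline library 4, at 140 CPM against 159 to 160. The calls of Dlg4 and Baiap2 held without these libraries.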

How the results depend on the processing

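In Control-shRNA 9 of the 31 genes were called for bicuculline, and 9 without each library in turn. With no threshold on the fold 17 were called (41.4% of all genes), and with a threshold of 1, 3. In Dnmt3a1-shRNA2 10 were called, and 8 to 11 without a library. With no threshold it was 20 (46.0% of all genes), and with a threshold of 1, 4. The knockdown called 2 at baseline, 0 with a threshold of 1, and 1 to 2 without a library. With bicuculline it called 1, 6 with no threshold (17.7% of all genes), 0 with a threshold of 1, and 1 to 2 without a library. Library sizes only gave 2 there, where 1107 of all 17222 genes were called, against 1015 in the main fit. Limma gave 2 on log2(TPM + 1) (787 of all genes), on log2(TPM + 0.1) (1018) and on all genes above 0 (644 of 37887). The shares of all genes at a threshold of 1 are not given here. The interaction called 0 of the 31 throughout. For bicuculline, changes of length index were called for 3 genes in each comparison. Without the threshold of 0.1 they were 9 in Dnmt3a1-shRNA2 (27.3% of all genes). Without a library they were 2 to 3 in Control-shRNA and 3 in Dnmt3a1-shRNA2. For the knockdown and the interaction 0 were called.

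With the replicate block the counts were 9, 10, 2, 1 and 0, where 3986, 4612, 1284, 1338 and 3 of all 17222 genes were called. By the adjusted p-value alone they were 24, 26, 9 and 13. Over all genes, 50.8% passed beside the 24, 27.5% beside the 9 and 30% beside the 13. The share beside the 26 is not given here. In that comparison 27 of the 31 and 10170 of all 17222 genes were below an unadjusted p-value of 0.05 in edgeR. In Dnmt3a1-shRNA2 with and without bicuculline, where 1 pair was under 0.1, 3 of 4 libraries correlated best with their own number. For bicuculline in Control-shRNA 3 of 4 did, for the knockdown at baseline 4 of 4, and for the knockdown with bicuculline 2 of 4. Signs reversed for Begain in Control-shRNA, at -0.019, -0.020 and -0.019 in limma on log2(TPM + 1), on log2(TPM + 0.1) and on all genes above 0, and for Dlg4 in Dnmt3a1-shRNA2, at -0.0091 with library sizes only and -0.059 under each of the 3 limma settings, against a shift of the median of all genes of -0.15 with library sizes only and of -0.12 on log2(TPM + 1). The cause was not tested. Over all genes, the interaction had 17 calls in DESeq2, 3 with the block, 3 without the filter and 1 in limma on all genes above 0. Grip2, at mean levels of 6.0 to 8.6 TPM, was the lowest of the 31.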
